A study of Mus musculus with 12 samples.

Results

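Granule cell progenitors of wild type mice were compared between the cerebellar hemispheres and the vermis, the midline strip that joins them. The arrays were chosen by their titles, which gave 3 wild type hemisphere arrays and 3 wild type vermis arrays of the 12 in the series. Differences are given throughout as hemisphere minus vermis on the log2 scale, so that a positive value is a higher level in the hemisphere, and 1 unit is a 2-fold change.

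The study asked how progenitors of either region respond to strong hedgehog signalling, and the wild type arrays give the difference between the regions that exists without the activated allele. Per the labels, all mice were of a mixed C57BL/6 and Swiss Webster background and were taken at P8 (postnatal day 8), progenitors were isolated by Percoll gradient, and the cells of 5 mice were pooled for a replicate. The other 6 arrays, 3 per region, were from mice of the genotype Atoh1-CreER/+; R26LSL-SmoM2-YFP, in which 200 µg of tamoxifen per g at P2 lets the Cre driven by Atoh1, a gene of granule cell progenitors, switch on SmoM2, an activated Smoothened fused to YFP. The labels do not say if tamoxifen was also given to wild type mice, and a pool of 5 mice is the unit behind every error and p below.

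Granule cell progenitors arise from the rhombic lip, spread over the surface of the cerebellum as the external granule layer and divide there in response to Sonic hedgehog released by Purkinje cells. Smoothened, once the receptor Patched no longer holds it back, acts through the Gli transcription factors on the cell cycle. The engrailed and Otx homeobox factors and the COUP-TF nuclear receptors (Nr2f1 and Nr2f2) are best known for dividing the early brain into regions, and regional differences among progenitors matter because medulloblastoma of the hedgehog type starts in these cells.

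Markers of granule cell progenitors were well above the array medians in both regions, and none of the 8 passed between them. Atoh1, the factor that keeps these cells dividing, read 8.27, 8.18 and 8.02 in hemisphere replicates 1 to 3 and 7.75, 8.01 and 7.80 in vermis, so the hemisphere arrays were higher throughout but the difference did not pass (0.30 ± 0.12 SE, n = 3 arrays per group, adjusted p = 0.668 by limma). Zic1, a zinc finger factor of the granule lineage, read 12.89 to 13.10, and Neurod1, a factor of granule neuron differentiation, 12.87 to 13.09 over the 6 arrays. The others were Pax6, Zic2, Barhl1, Mycn and the proliferation marker Mki67. Replicates of different regions that carried the same number correlated at 0.9941 to 0.9959 over all genes, and arrays within a region at 0.9894 to 0.9946. Control signals were lower on every wild type hemisphere array than on every wild type vermis array. For bioB they were 6.98 to 8.73 against 8.91 to 9.15, and for dap 7.8 to 9.5 against 9.8 to 10.4. The phe, lys and cre controls did not overlap either. Hemisphere replicate 3 had the lowest bioB and dap signals of the 6 arrays (6.98 and 7.77). The 3'-to-5' difference of the Actb probe sets, which tracks RNA integrity and labelling, did not overlap. It was 0.46 to 0.79 in wild type hemisphere and 0.88 to 0.90 in wild type vermis. That of Gapdh was also lower on every hemisphere array. The part of these array differences, which run along with region, in the results below was not tested.

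Few genes differed between the regions. Of 18194 genes tested with limma, 34 had a p below 0.05 after Benjamini-Hochberg adjustment and are said to have passed (0.187% of all), of which 7 were higher in the hemisphere (0.0385%) and 27 in the vermis (0.148%). A difference of at least 2-fold was reached by 17 of them, 2 higher in hemisphere and 15 higher in vermis. At an unadjusted p under 0.05 there were 1149 genes, 421 higher in hemisphere and 728 in vermis. For all 34 genes the 3 arrays of a region lay entirely above or below those of the other (separated, in what follows), which was also so for 4.07% of all genes with the hemisphere above and 4.69% with it below. The median difference over all genes was close to 0, and the SD among replicate arrays had a median of 0.16.

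**Figure D1:**
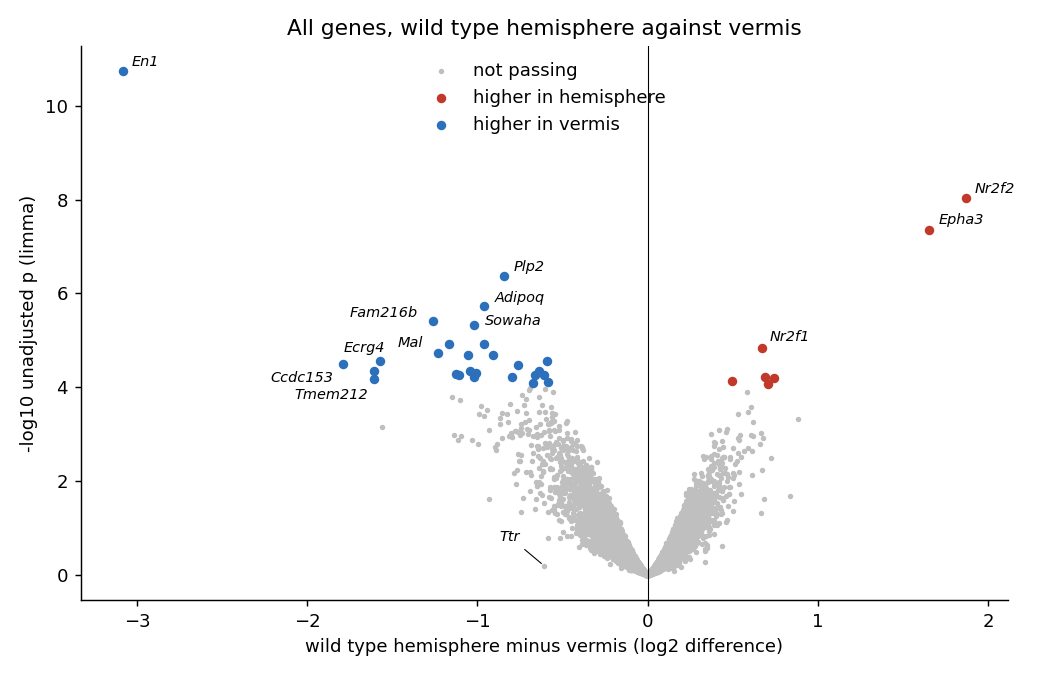
Difference of each of the 18194 genes between wild type hemisphere and vermis (x axis, log2) against the -log10 of its unadjusted p by limma (y axis). Coloured points are the 34 genes that passed, 7 higher in hemisphere and 27 higher in vermis; En1 stands farthest out, and Ttr, which did not pass, is marked because its 3 hemisphere arrays lay far apart.

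The count of 34 depended on the fit. With each of the 6 combinations of genotype and replicate number as a fixed block, 49 genes passed (0.269%), 10 higher in hemisphere and 39 in vermis, and 23 of the 34 were among them. Without vermis replicate 2 the count was 8, without hemisphere replicate 2 it was 9 and without vermis replicate 3 also 9, without vermis replicate 1 it was 19, and without hemisphere replicate 1 it rose to 58. Leaving out SmoM2 arrays, which share the estimate of spread, gave 10 to 26. The genes that passed in each of the 12 left-out fits were En1, Nr2f2, Epha3, Plp2, Adipoq and Sowaha.

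The engrailed and Otx factors were higher in the vermis. En1, an engrailed homeobox factor needed for the midbrain and cerebellum to form, had the largest difference of all. It read 2.54, 2.55 and 2.50 in hemisphere replicates 1 to 3 and 5.42, 5.65 and 5.76 in vermis. The hemisphere arrays all lay below the lower quartile of their arrays, where the values have no known distance from background, and every vermis array was far above them. The difference was -3.08 ± 0.16 (SE, n = 3 arrays per group; 95% interval -3.43 to -2.74), an 8.47-fold change on this compressed scale (adjusted p = 3.35e-07 by limma). Its adjusted p stayed at 9.48e-06 or below whichever array was left out.

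En2, the second engrailed factor of the cerebellum, was expressed in both regions and differed less. It read 9.39, 9.29 and 9.40 in hemisphere and 9.95, 10.09 and 9.96 in vermis, a 1.56-fold difference (-0.64 ± 0.11 SE, adjusted p = 0.039 by limma). Otx2, a homeobox factor of the forebrain and midbrain that is also expressed in vermis progenitors, unipolar brush cells and choroid plexus, read 7.91, 7.60 and 7.86 in hemisphere and 8.40, 8.47 and 8.32 in vermis. Neither gene's groups overlapped, yet both calls were close to the threshold. Otx2 differed by -0.61 ± 0.11 (SE, n = 3 per group; adjusted p = 0.039 by limma, 0.0579 with the replicate block). With arrays left out in turn, the adjusted p reached 0.209 for En2, which passed in 3 of 12 such fits, and 0.216 for Otx2, which passed in 1.

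The COUP-TF nuclear receptors ran the other way. Nr2f2, which is also on the list of hedgehog targets, read 8.52, 8.49 and 9.16 in hemisphere and 6.79, 6.73 and 7.03 in vermis. Replicate 3 was the highest of its group in both regions, and the lowest hemisphere array was well above the highest vermis array. The difference was 1.87 ± 0.16 (SE, n = 3 arrays per group; 95% interval 1.53 to 2.20), or 3.65-fold (adjusted p = 8.59e-05 by limma). All 6 probe sets of Nr2f2 pointed the same way. Nr2f1, its close relative, read 11.25, 11.04 and 11.32 in hemisphere and 10.58, 10.42 and 10.59 in vermis, again without overlap. This was a smaller, 1.60-fold difference (0.67 ± 0.10 SE, adjusted p = 0.0262 by limma), whose adjusted p ran from 0.0277 to 0.141 as arrays were left out. Nr2f6, the third member of the family, differed by -0.17 and did not pass.

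These were the 5 passing genes among 32 regional patterning factors measured, 2 higher in hemisphere and 3 in vermis, beside 0.187% of all genes. The list included Irx, Meis, Pbx, Ebf, Foxp and Tshz factors, and its median difference was -0.10 with 12 members above 0 and 20 below. Tshz1 (-0.12) and Foxp2 (-0.28), factors named whatever their values, did not pass. Hox genes, which mark the hindbrain behind the cerebellum, had 0 of 15 members passing by limma, and 6 of the 15 lay below the lower quartile on all 6 arrays.

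**Figure D2:**
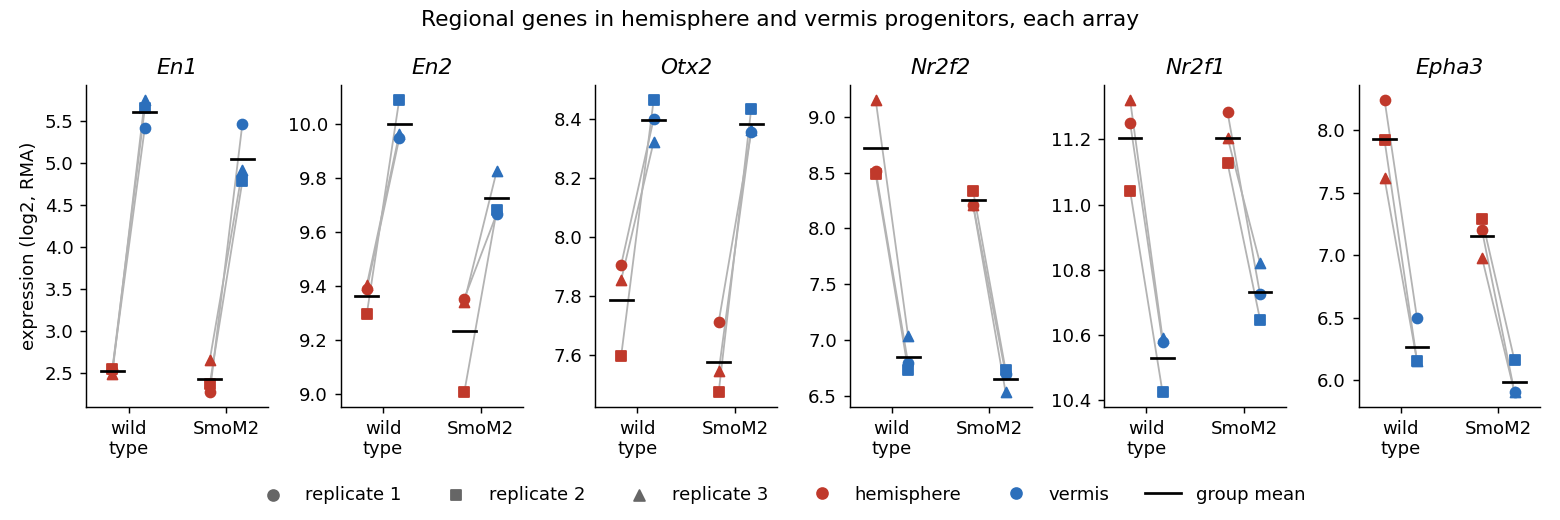
Expression (y axis, log2 RMA value, a separate scale for each gene) of 6 regional genes on every array, for wild type and SmoM2 (x axis). Red points are hemisphere and blue points vermis, marker shapes give the replicate number, lines join equal numbers and black bars are group means; in wild type the colours do not overlap for any of the 6 genes.

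Epha3, a receptor tyrosine kinase for A-type ephrins that steers growing axons, was higher in the hemisphere. It read 8.24, 7.92 and 7.61 in hemisphere replicates 1 to 3 and 6.50, 6.16 and 6.16 in vermis. All hemisphere arrays were above all vermis arrays, and the difference of 1.66 ± 0.16 (SE, n = 3 per group; 95% interval 1.32 to 1.99), or 3.15-fold, passed with an adjusted p of 0.000266 by limma. It was the only passing gene among 21 ephrins and Eph receptors. Efna4, an ephrin ligand, at 0.59 (adjusted p = 0.212) and Ephb1, a B-type receptor, at -0.56 (0.218) were separated between the regions but did not pass, and Efna5, a ligand of Epha3, differed by -0.08. Of 40 other guidance cues and receptors 0 passed by limma. Sema3e, a secreted semaphorin, had a difference of -0.87 there (adjusted p = 0.136). On that list 3 members (7.5%) lay wholly higher in vermis, beside 4.69% of all genes.

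The remaining genes higher in the hemisphere differed less. Igf2bp3, a protein that binds and stabilises mRNAs including that of Igf2, read 7.02, 7.13 and 6.78 in hemisphere and 6.37, 6.33 and 6.01 in vermis (0.74 ± 0.13 SE, n = 3 per group, adjusted p = 0.04 by limma). Syt1, the calcium sensor of synaptic vesicle release, read 8.59, 8.70 and 8.63 against 8.04, 7.86 and 7.90 (0.71, adjusted p = 0.0453, 0.0547 with the replicate block). Ddr2, a receptor tyrosine kinase that binds collagen, read 7.32, 7.16 and 6.90 against 6.42, 6.62 and 6.27 (0.69, adjusted p = 0.039). The regions did not overlap for any of them. Ubash3b, a phosphatase that dampens kinase signalling, differed by 0.50 (adjusted p = 0.0422). Each of these 4 calls ended in most fits that left out an array, with 1 or 2 of 12 passing and adjusted p up to 0.221. With each probe set tested on its own, none of the probe sets of these 4 genes passed. The other probe sets of Igf2bp3 differed by 0.07 to 0.49, and the mean of its probe sets did not pass. Igf2bp3 was the only member of 16 genes of the IGF system that passed.

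Genes of motile cilia, the beating cilia of ependymal cells that line the ventricles, made up 7 of the 27 genes higher in vermis. They were 7 of 89 such genes measured, beside 0.148% of all genes. That list was put together after the values had been seen. Ccdc153, a coiled-coil protein used as an ependymal marker, read 5.59, 4.07 and 5.35 in hemisphere and 6.61, 7.04 and 6.73 in vermis. Replicate 2 was the lowest of the hemisphere arrays and the highest of the vermis arrays. The difference was -1.79 ± 0.30 (SE, n = 3 per group), or 3.46-fold (adjusted p = 0.0353 by limma, 0.0569 with the replicate block). Tmem212, a membrane protein used as a marker in the same way, read 5.84, 4.50 and 5.75 against 6.86, 7.16 and 6.89, with replicate 2 again at both extremes (-1.61, adjusted p = 0.0403, 0.0722 with the block). Enkur, a calmodulin-binding protein of cilia and flagella, read 4.39, 3.31 and 4.27 against 5.69, 6.00 and 5.09 (-1.60, adjusted p = 0.039, 0.0719 with the block). Its second hemisphere array lay below the lower quartile.

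Rsph4a, a component of the radial spoke head that shapes the ciliary beat, read 4.24, 3.54 and 3.75 in hemisphere and 5.10, 5.12 and 4.82 in vermis (-1.17 ± 0.18 SE, adjusted p = 0.0242 by limma, 0.0279 with the block). Fam216b read 5.16, 4.47 and 5.11 against 6.18, 6.39 and 5.95 (-1.26, adjusted p = 0.0117, 0.0385 with the block). These were the 2 genes of the 7 that also passed with the replicate block. Fam183b (-1.13) and Ppil6, a member of the cyclophilin family (-0.91), passed at adjusted p of 0.039 and 0.0293 and had 0.0918 and 0.0501 with the block.

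Across 89 measured genes of the motile cilium, a list put together after the values had been seen and so given as a description, 79 were lower in hemisphere and 10 higher, with a median of -0.30 beside -0.0025 for all genes. For 39 of them, or 43.8%, all vermis arrays were above all hemisphere arrays, beside 4.69% of all genes. The median within replicate numbers 1, 2 and 3 was -0.20, -0.48 and -0.19, so that replicate 2 carried the largest shift and the others had the same direction. Foxj1, the transcription factor that sets up motile cilia, differed by -0.20 and did not pass. The number of the 89 that passed was 2 with the replicate block, 0 without vermis replicate 2, 2 without hemisphere replicate 2 or without vermis replicate 1, 3 without vermis replicate 3 and 12 without hemisphere replicate 1. In all of these the median of the list stayed between -0.32 and -0.26. In a bulk pool, fewer cells of a type and less RNA per cell cannot be told apart, here and in every result below.

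**Figure D3:**
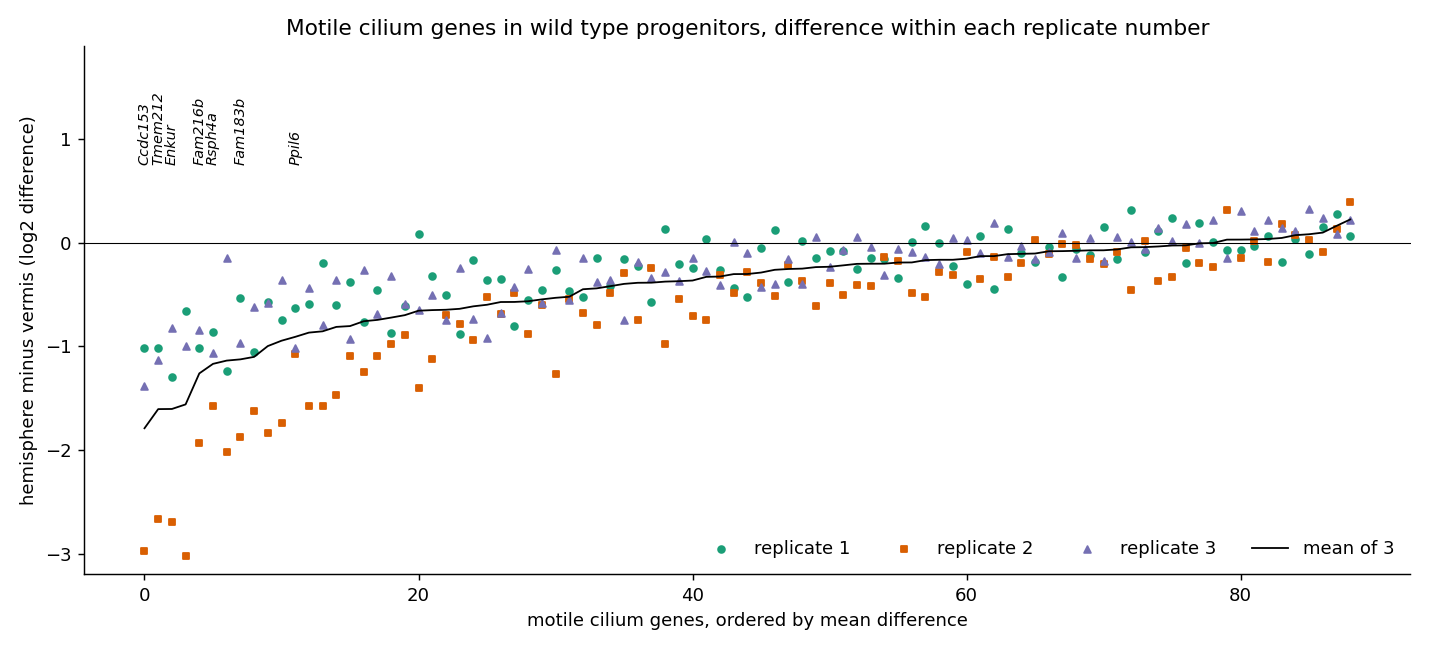
Difference between wild type hemisphere and vermis (y axis, log2) for each of 89 motile cilium genes, ordered by the mean (x axis), with a point for each replicate number and a line for the mean of the 3. The 7 genes that passed are named; most points lie below 0, and replicate 2 lies lowest for the genes at the left.

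The promoters of several of these genes carry the motif GTTGCC, a half-site of the X-box to which RFX factors, regulators of ciliary genes, bind. The motif was searched as these letters on both strands of the 250 bases upstream of the gene start, in RefSeq sequence of the build GRCm38.p6, and a match is a description of the sequence and not a site in use. It was present in 11.8% of 27025 genes with a promoter entry, in 25 of the 75 motile cilium genes with an entry (33.3%) and in 6 of the 19 genes with an entry that were higher in vermis (31.6%), namely Cacna1e, Ccdc153, Enkur, Fam183b, Otx2 and Ppil6. Among the 7 genes higher in hemisphere it was in the promoter of Syt1. The longer form GTTGCCATG was in 2 of the 75 motile cilium genes (2.67%) and 0.733% of all, and in 0 of the passing genes. Both forms were searched after the values had been seen. The windows around the matches in the 4 passing motile cilium genes are shown on the strand of the gene, 5′ to 3′, with GTTGCC in capitals. They show that the motif stands at different distances from the gene start. They also show it followed by tgga in Ccdc153 and in the nearer Fam183b window. They are Ccdc153 at chr9:44240495-44240560 (plus strand, 146 bases between motif and gene start), Enkur at chr2:21205366-21205429 (minus strand, 28 bases), Fam183b at chr11:58801992-58802057 and chr11:58801961-58802006 (minus strand, 61 and 10 bases) and Ppil6 at chr10:41490398-41490438 (plus strand, 5 bases).
Ccdc153: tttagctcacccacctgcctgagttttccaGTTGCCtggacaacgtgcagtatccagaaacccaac
Enkur: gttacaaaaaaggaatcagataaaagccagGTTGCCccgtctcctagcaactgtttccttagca
Fam183b, far: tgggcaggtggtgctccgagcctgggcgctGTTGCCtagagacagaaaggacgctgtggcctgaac
Fam183b, near: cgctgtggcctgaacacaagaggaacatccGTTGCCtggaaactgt
Ppil6: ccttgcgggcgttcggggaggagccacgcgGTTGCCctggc

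Other genes higher in vermis had varied roles. Plp2, a proteolipid of intracellular membranes, had close replicates, at 8.24, 8.32 and 8.38 in hemisphere and 9.25, 9.11 and 9.11 in vermis (-0.84 ± 0.10 SE, n = 3 per group, adjusted p = 0.00196 by limma). Adipoq, the hormone adiponectin, read 4.86, 4.39 and 4.57 against 5.62, 5.51 and 5.57 (-0.96, adjusted p = 0.00663). Sowaha, an ankyrin repeat protein, read 2.39, 2.57 and 2.49 against 3.21, 3.41 and 3.88 (-1.02, adjusted p = 0.0125). None of these groups overlapped, and the hemisphere arrays of Sowaha all lay below the lower quartile, where differences are compressed. Ecrg4, the precursor of the secreted peptide augurin, read 6.68, 5.33 and 5.89 in hemisphere and 7.49, 7.72 and 7.39 in vermis (-1.57 ± 0.26 SE, adjusted p = 0.0338 by limma, 0.0569 with the replicate block). Replicate 2 was again its lowest hemisphere and highest vermis array.

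Neuronal and signalling genes were among them too. Zfhx3, a zinc finger homeobox factor, read 4.79, 4.68 and 4.69 in hemisphere and 5.84, 5.39 and 5.82 in vermis (-0.96, adjusted p = 0.0242 by limma). Cacna1e, the pore subunit of the R-type calcium channel, read 7.30, 7.21 and 7.61 against 8.14, 7.96 and 8.31 (-0.76, adjusted p = 0.0353). Socs2, a suppressor of cytokine and growth hormone signalling, read 8.58, 8.61 and 8.58 against 9.12, 9.09 and 9.34 (-0.59, adjusted p = 0.0338). The regions did not overlap in any of the 3. Syt4, a synaptotagmin, differed by -1.05 (adjusted p = 0.039), and Patj, a scaffold of cell polarity, by -0.67 (0.0437). All 3 hemisphere arrays of Cabcoco1 and Olfm4 and 2 of Frmpd2 lay below the lower quartile, so the sizes given here for these genes are compressed. Tm4sf1 (-1.02) and Ppp1r36 (-1.11) had an adjusted p of 0.039 and Cabcoco1 (-1.06) of 0.0293, which became 0.0722, 0.0631 and 0.0628 with the replicate block. Frmpd2 (-0.80), Olfm4 (-0.66) and Ndnf, a secreted neurotrophic factor (-0.58), passed as well. For Ndnf the probe sets disagreed in direction, while in the other 14 passing genes with several probe sets all pointed one way. The sizes could differ, and with each probe set tested on its own none passed for Cacna1e, Patj, Tm4sf1 or Ndnf. Of the genes in this paragraph and the one before, Plp2, Adipoq and Sowaha passed whichever array was left out. Tm4sf1, Patj and Ndnf passed in none of the 12 such fits, and the rest in 1 to 8.

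Apart from Nr2f2, no hedgehog signalling gene on the lists passed between the regions. Gli1, the transcription factor most used to read the pathway's activity, read 7.15, 6.83 and 7.41 in hemisphere and 7.28, 6.93 and 7.25 in vermis (-0.02, adjusted p = 0.999 by limma). Ptch1, the receptor that the pathway induces, read 10.50, 10.83 and 10.64 against 10.48, 10.66 and 10.62 (0.07, adjusted p = 0.993). The arrays of the regions were interleaved for both. Of 14 hedgehog targets measured, Nr2f2 alone passed, beside 0.187% of all genes, and the list median was 0.11. On that list 3 members (21.4%) were separated towards the hemisphere, beside 4.07% of all genes, and 0 towards the vermis, beside 4.69%. The mean level of the list, Nr2f2 included, was 8.75 to 8.92 in hemisphere and 8.58 to 8.64 in vermis. The mean of Nr2f2 was not higher with the activated allele, at 8.25 in SmoM2 and 8.72 in wild type hemisphere. In vermis it was 6.65 in SmoM2 and 6.85 in wild type, and this contrast of genotypes was not tested. Hhip, which binds the ligand (-0.08), Sfrp1, a secreted Wnt inhibitor (-0.05), Mycn (-0.07) and the cyclins Ccnd1 (0.29, adjusted p = 0.844) and Ccnd2 (0.16 in its brightest probe set, 0.29 as the mean of its probe sets) did not pass. Of 37 genes that carry the hedgehog signal or build the primary cilium 0 passed by limma, beside 0.187% of all genes. Separated between the regions were 0 of the 37, beside 4.07% of all genes towards the hemisphere and 4.69% towards the vermis. Their differences ran from -0.26 to 0.28. The 37 included Smo (-0.02) and the co-receptors Boc (-0.01), Gas1 (-0.16) and Cdon (-0.24).

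Genes of mitosis and DNA replication had small differences, nearly all above 0. All 33 mitosis genes had a difference above 0, as did 8955 of all 18194 genes. The mitosis list had a median of 0.17, but 0 passed by limma. In 24 of the 33 the hemisphere array was higher in all 3 replicate numbers, as in 2632 of all 18194 genes, and in 6 (18.2%) all hemisphere arrays were above all vermis arrays, beside 4.07% of all genes. Ccnb2, a mitotic cyclin, read 9.91, 9.66 and 9.50 in hemisphere and 9.59, 9.38 and 9.08 in vermis (0.34, adjusted p = 0.651). Its groups overlapped, although the hemisphere array was the higher in each replicate number. Aurka, a kinase of the spindle poles, differed by 0.33 (adjusted p = 0.601), and Mki67 by 0.11 (0.98). The mean level of the 33 genes was 8.82 to 9.19 in hemisphere and 8.62 to 8.99 in vermis, so the regions overlapped as groups. Among 39 genes of DNA replication and G1/S 35 were above 0, the median was 0.12 and 0 passed. Of the 39, 6 (15.4%) were separated towards the hemisphere, beside the same 4.07% of all genes. Tk1, thymidine kinase (0.40), and Rfc3, a subunit of the clamp loader (0.36), had the largest values. Of 19 CDK inhibitors and genes of cell cycle exit 12 were below 0, with a median of -0.06 and 0 passing.

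Identity and differentiation lists had medians of -0.00 (25 progenitor identity genes) and -0.07 (39 granule neuron differentiation genes), with 0 passing in either. Cntn2, a cell adhesion protein of newborn granule neurons, differed by -0.25. Eomes, a factor of unipolar brush cells, read 8.00, 7.39 and 7.37 in hemisphere and 8.47, 8.17 and 8.16 in vermis (-0.68, adjusted p = 0.294 by limma). Its groups did not overlap, and Lmx1a, another factor of that lineage, differed by 0.03. In the list of 15 markers of unipolar brush cells and glutamatergic nuclei Otx2 was the gene that passed.

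Signalling and matrix lists held few or no passing genes. FGF and MAPK output had 0 of 33 by limma. On that list 7 members (21.2%) were separated towards the vermis, beside 4.69% of all genes, and 2 (6.06%) towards the hemisphere, beside 4.07%. Dusp4, a phosphatase that shuts off MAP kinases, read 8.06, 7.84 and 7.78 in hemisphere and 8.62, 8.58 and 8.32 in vermis (-0.62, adjusted p = 0.0927) and passed with the replicate block (0.0268). Dusp5, of the same family, was close at -0.60 (adjusted p = 0.0556). Lfng, a glycosyltransferase that tunes Notch receptors, read 5.38, 5.35 and 5.40 against 4.78, 4.71 and 4.90 (0.58, adjusted p = 0.0594) and was the only one of 25 Notch pathway genes to pass with the block (0.0385). Among 37 chemokines and extracellular matrix receptors 0 passed. Of these, 6 (16.2%) were separated towards the hemisphere and 1 (2.7%) towards the vermis, beside 4.07% and 4.69% of all genes. They included the integrin subunit Itga8 (0.66, adjusted p = 0.164) and the matrix protein Tnc (0.67, 0.369), and Cxcr4, the chemokine receptor that holds progenitors at the surface, differed by 0.15. Immediate early and dissociation response genes were below 0 in 28 of 30 cases, beside 9239 of all 18194 genes. The list had a median of -0.25 and 0 passing, and its mean level was 7.88 to 8.00 in hemisphere and 8.13 to 8.30 in vermis. Jund, an AP-1 subunit on that list, passed with the replicate block (-0.62, adjusted p = 0.318, 0.0352 with the block). In the BMP, Wnt, retinoid, cadherin, ribosome biogenesis, oxidative phosphorylation and interferon lists 0 genes passed, beside 0.187% of all genes. Of 24 retinoid and thyroid hormone genes, 6 (25%) were separated towards the vermis, beside 4.69% of all genes. Towards the hemisphere it was 1 (4.17%), beside 4.07%, and the median of that list was -0.15.

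The marker lists of some other cell types read higher in the vermis, and their part in the genes above was not tested. Of 20 oligodendrocyte lineage genes 0 passed by limma, yet 19 were lower in hemisphere, as were 9239 of all 18194 genes. Of the 20, 10 (50%) were separated that way, beside 4.69% of all genes, and the list median was -0.46. Their mean level was 7.65 to 7.70 in hemisphere and 7.92 to 8.30 in vermis. With the replicate block Ermn (-0.98, adjusted p = 0.0927, 0.0389 with the block) and Mobp (-0.89, adjusted p = 0.201, 0.0385 with the block), both proteins of myelinating cells, passed. Mog, a myelin surface protein, differed by -0.90 (adjusted p = 0.212), and Pdgfra, which marks the precursors, by 0.18. Mal, a myelin proteolipid that was not on the list, read 7.69, 7.50 and 7.00 in hemisphere and 8.41, 8.98 and 8.51 in vermis (-1.23 ± 0.19 SE, adjusted p = 0.0293 by limma), and passed in 6 of the 12 fits with an array left out (adjusted p up to 0.141). In SmoM2 the median of the oligodendrocyte list was -0.02.

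All 17 Purkinje cell markers were below 0, as were 9239 of all 18194 genes. The 17 markers had a median of -0.26 and mean levels of 5.90 to 6.00 in hemisphere and 6.14 to 6.28 in vermis. Pcp4, a calmodulin-binding protein of these cells, read 6.06, 6.02 and 6.46 against 6.78, 7.28 and 7.51 and was the 1 that passed (-1.01, adjusted p = 0.039 by limma), though in 2 of the 12 fits with an array left out (adjusted p up to 0.212). Calb1, calbindin, differed by -0.77 (adjusted p = 0.505) and Pcp2 by -0.25. Choroid plexus and ependyma markers had 3 of 18 passing, Ccdc153, Tmem212 and Otx2, beside 0.148% of all genes passing higher in vermis. Of the 18, 7 (38.9%) were separated towards the vermis, beside 4.69% of all genes, and the median was -0.25. None of the 3 passed with the block or without vermis replicate 1, 2 or 3, and without hemisphere replicate 1 there were 5. Ttr, transthyretin, the most abundant product of choroid plexus, read 11.85, 4.90 and 5.17 in hemisphere and 8.31, 7.75 and 7.68 in vermis. The first hemisphere array was thus far above all others, and the remaining pair far below the vermis. The difference was -0.61 ± 1.25 (SE, adjusted p = 0.999 by limma), and without hemisphere replicate 1 it was -2.88 (adjusted p = 0.00465).

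Astroglia and Bergmann glia, microglia, endothelium and meninges lists had 0 passing genes, and the mean levels of the regions overlapped in each (astroglia 8.66 to 9.01 in hemisphere and 8.78 to 9.00 in vermis, microglia 6.01 to 6.47 and 6.16 to 6.30, endothelium 6.08 to 6.71 and 6.35 to 6.60, meninges 6.55 to 6.85 and 6.65 to 6.78). GABAergic interneuron and erythroid markers also had 0.

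**Figure D4:**
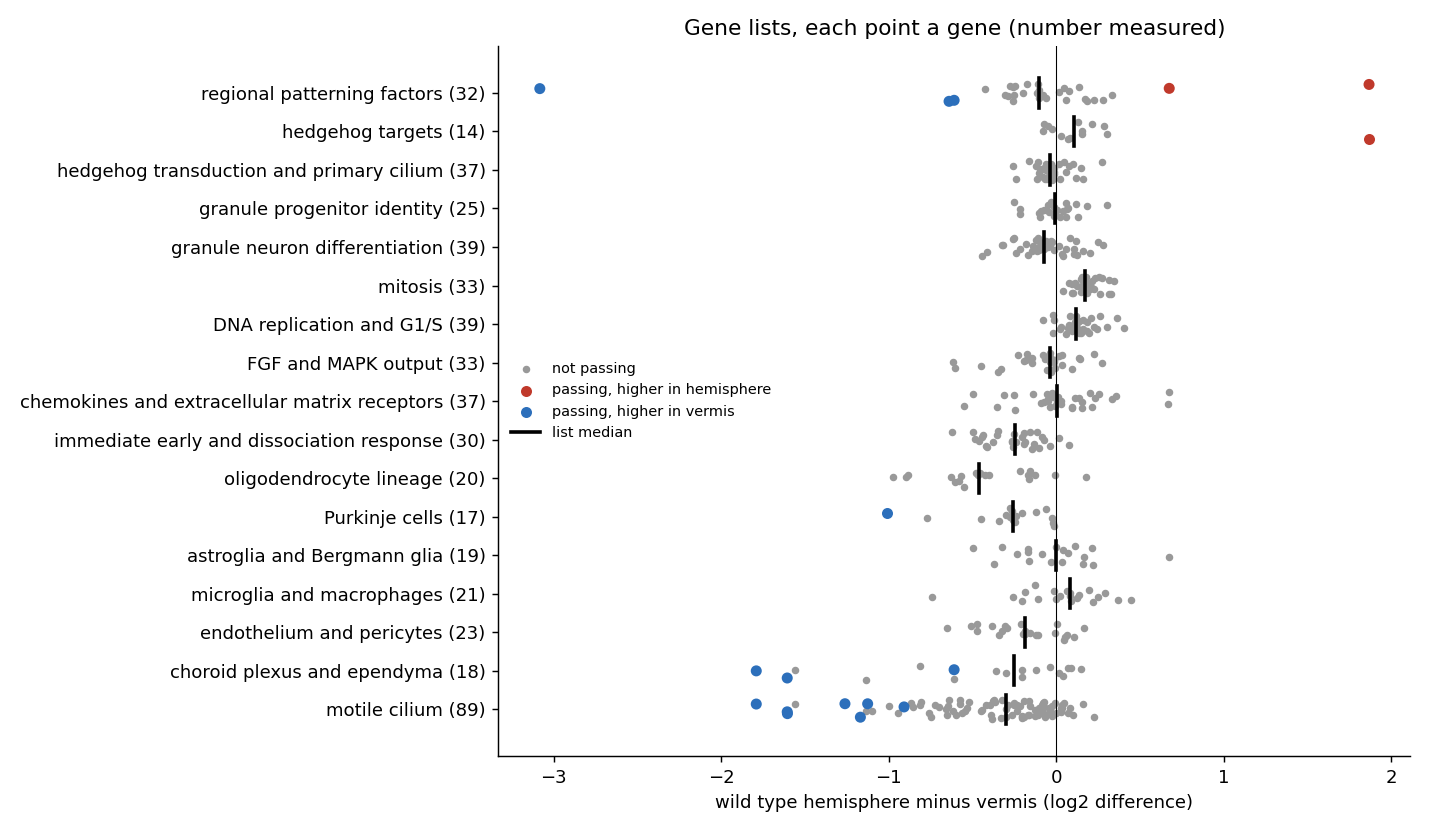
Difference between wild type hemisphere and vermis (x axis, log2) for every measured gene of 17 lists (y axis, number of genes in brackets); points are spread vertically at random within a list, larger coloured points passed, and black bars are list medians. The regional factors spread to both sides, mitosis genes all lie to the right of 0, and the oligodendrocyte, Purkinje and motile cilium lists lie mostly to the left.

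The same comparison in the SmoM2 arrays, which are other mice, gave 11 passing genes (0.0605% of all), 3 higher in hemisphere and 8 in vermis. En1, Nr2f2, Epha3 and Otx2 passed in both genotypes. En1 read 2.27, 2.38 and 2.66 in SmoM2 hemisphere and 5.46, 4.78 and 4.91 in SmoM2 vermis (-2.61, adjusted p = 3.07e-06 by limma). Nr2f2 differed by 1.60 (adjusted p = 0.000615), Epha3 by 1.17 (0.0108) and Otx2 by -0.81 (0.0108). En2 (-0.49, adjusted p = 0.268) and Nr2f1 (0.47, 0.246) had the wild type direction without passing.

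All 34 wild type genes had the same direction in SmoM2, where 53.1% of all genes did, and 32 had it in all 3 SmoM2 replicate numbers, beside 17.4% of all genes. At an unadjusted p under 0.05 in SmoM2 26 of the 34 were found, beside 3.63% of all genes in either direction. The tests of both genotypes share 1 estimate of spread per gene. Genes chosen in wild type with a low estimate are therefore favoured in SmoM2 too, and the 2 tests are not independent. The motile cilium genes had a median of -0.20 in SmoM2. Ccdc153 there read 4.77, 4.98 and 4.79 in hemisphere and 6.06, 6.17 and 5.49 in vermis (-1.06), again without overlap. The difference was smaller in SmoM2 for 33 of the 34, which were chosen for being large in wild type. The test of whether the region difference itself differed between the genotypes passed 0 of 18194 genes by limma, with 564 at an unadjusted p under 0.05. Adipoq, at -0.96 in wild type and -0.09 in SmoM2, had an unadjusted p of 0.000201 and an adjusted p of 1 by limma in that test. Sowaha read 9.19 to 9.69 on the SmoM2 arrays and differed there by -0.33. The change of its region difference between the genotypes did not pass either, and its level was not tested between the genotypes.

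**Figure D5:**
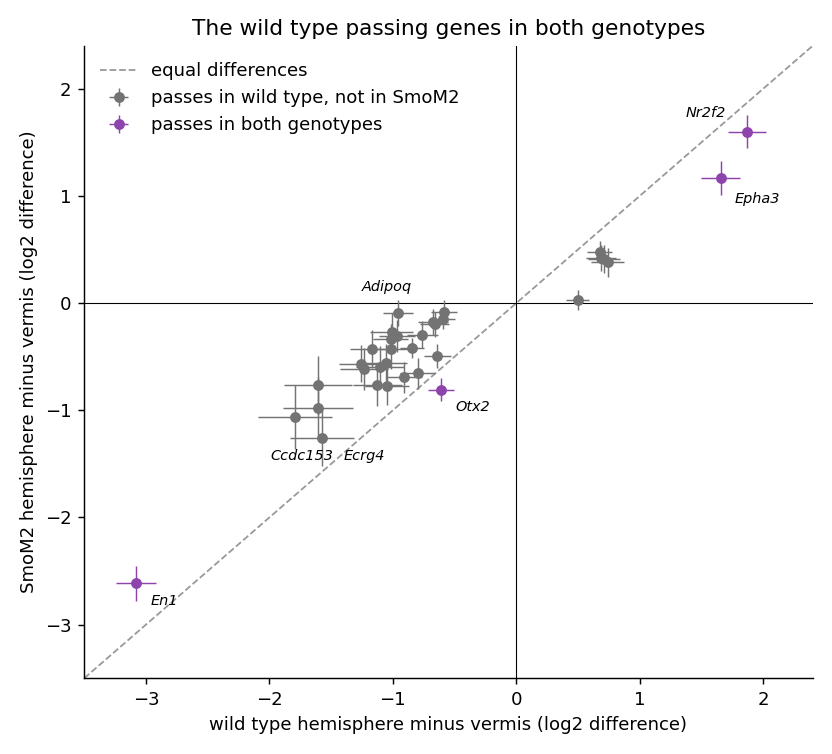
Difference between hemisphere and vermis in wild type (x axis) and in SmoM2 (y axis), both log2, for the 34 genes that passed in wild type; bars are standard errors of the fit, purple points passed in both genotypes and the dashed line marks equal differences. All points lie in the quadrants of equal direction, and En1, Nr2f2, Epha3 and Otx2 are the 4 in purple.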

How the data were processed

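Total RNA of 12 samples was hybridised to Affymetrix mouse arrays, per the labels' protocols, and the 6 wild type arrays are the comparison reported. The deposited log2 values per probe set were made by the authors with Partek and RMA (background correction, quantile normalization and summary over probes), per the submitters' processing notes, and were not normalized again. RMA gives no detection call, so low values have no known distance from background. Of 45101 probe sets, 34958 had 1 gene symbol in the platform annotation, and where a gene had several, the brightest on average over the 12 arrays stood for it, which left 18194 genes.

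The functions lmFit and eBayes of limma 3.58.1 (R 4.3.3) fitted 1 model of the 4 group means, with 8 residual degrees of freedom. Tests were two-sided and adjusted over all genes. All adjusted p in the text are from limma. Precision is limited by having 3 arrays per group. In this model every SE and p rests on a spread estimated over all 12 arrays, SmoM2 included, and moderated across genes. Arrays of the same replicate number deviated from their group means together, with correlations of 0.34 to 0.53 in wild type and 0.14 to 0.27 in SmoM2. Different numbers in wild type had correlations below 0. These follow in part from centring on the mean of 3 arrays and add nothing to the case for pairs. Because of the correlations within a number, the numbers were treated as pairs in an added fit. That fit had the 6 combinations of genotype and number as a fixed block, though the labels do not say what a shared number stands for. Its values stand beside a result where they change its call. Lists, 34 with 909 of 974 genes measured plus the motile cilium list, are described by counts and medians. The members and lists were chosen with earlier results of these data known. Genes named were the 15 largest separated differences each way among those that passed, up to 4 passing members of each list and a set given whatever its values; others were named after their values were seen. The model was tested on simulated data. Alternatives changed the samples, block, weights, moderation, normalization, probe set and filter, and left out each array.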

Additional observations from a re-analysis of the deposited data

How the results depend on the processing

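The count of 34 genes in wild type was 3 with the 6 wild type arrays alone, 5 without moderation, 15 with array weights, 19 with brighter genes alone, 198 with a random block for genotype and replicate number and 90 with a replicate block in the wild type arrays alone, an alternative chosen after seeing the data. It ran from 8 to 58 as each array was left out. The 17 genes of at least 2-fold became 3 with the wild type arrays alone, 9 with the replicate block, 3 without moderation, 9 with brighter genes alone and 10 with every probe set tested on its own, and ran from 5 to 30 with arrays left out. The count of 11 in SmoM2 was 39 with the random block, 42 with array weights and 1 without moderation, and 2 to 18 with arrays left out. The test of whether the region difference differed between the genotypes passed 0 to 1 genes with arrays left out. The cause of these changes was not tested, and some of the alternatives also hold fewer arrays or genes. The replicate block ended the call of 11 of the 34 genes, named beside their values, added 26 and changed no other call in wild type. None of the 34 genes turned its direction under any alternative, while some that had not passed did, Ttr among them. En1, Nr2f2 and Epha3 passed in every one that could be run for them. The share of calls higher in vermis was 79.4%, with 77.4% after median centring and 75.8% after repeated quantile normalization, and over the alternatives counted per gene it ran from 33.3% (3 genes, wild type arrays alone) to 89.3% (mean of all probe sets). Arrays numbered 3 per group, and values under the lower quartile are compressed, which limits both calls and sizes there.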

Other observations

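Among the 26 genes that passed with the replicate block but not without it was Uncx, a homeobox factor. It read 9.47, 9.17 and 9.73 in wild type hemisphere replicates 1 to 3 and 10.18, 9.97 and 10.37 in vermis, lower in hemisphere in each number (-0.71, adjusted p = 0.0762 by limma, 0.0171 with the block). Another was Esr1, an estrogen receptor, which read 4.79, 4.66 and 4.60 against 5.40, 5.32 and 5.39 (-0.69, adjusted p = 0.0544, 0.0385 with the block). In SmoM2 Uncx differed by -0.10 and Esr1 by -0.49. These genes were named after their values were seen.

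A probe set to which the platform annotation gives no gene symbol differed by 1.19 between wild type hemisphere and vermis (adjusted p = 0.00931 by limma over all probe sets). It was the 1 probe set that passed among those without exactly 1 symbol, and its gene is not named here.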
